A study of Mus musculus with 4 samples.

Results

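The genes described here are 7 members of the major histocompatibility complex (MHC) class II pathway of antigen presentation, Cd74, H2-Aa, H2-Ab1, H2-Eb1, H2-DMa, H2-DMb1 and Ciita. They were matched by gene symbol, and all 7 were found among the 32285 genes of each count matrix. Class II molecules are pairs of an α and a β chain that carry peptides from endocytosed protein to the cell surface, where CD4+ T cells read them. Constitutive expression is a property of professional antigen-presenting cells, and it is switched by the transactivator Ciita, which interferon-γ induces in many other cells. In the mouse testis, macrophages in the interstitium are known for low class II and those around the tubules for high class II.

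The study made single-cell RNA libraries from testicular organoids (TOs), spheroids that were rebuilt from dissociated testis cells of neonatal mice and cultured in extracellular matrix, and from whole mouse testes. There were 2 TO libraries and 2 testis libraries, all from unsorted cells. The series gives an age of 28 days for TOs and testes, whereas the protocol in the sample labels names TOs of day 21, and the difference was not resolved here. The cells for TOs came from ICR mice, an outbred stock. The labels do not say whether the libraries of a condition came from different animals or cultures. The study calls its 2 testis libraries biological replicates, and its methods name 2 independent batches of organoids. The p-values below measure the spread between these libraries, part of which may be technical.

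Coordinates are those of the mouse build GRCm38 with GENCODE vM21 gene models. H2-Aa (ENSMUSG00000036594, chr17:34282744-34287823, minus strand) and H2-Ab1 (ENSMUSG00000073421, chr17:34257689-34269419, plus strand) encode the α and β chains of I-A. H2-Eb1 (ENSMUSG00000060586, chr17:34305867-34316674, plus strand) encodes the β chain of I-E, and the gene model Gm20513 overlaps it on the other strand. H2-DMa (ENSMUSG00000037649, chr17:34119541-34139101, plus strand) and H2-DMb1 (ENSMUSG00000079547, chr17:34153072-34160230, plus strand) encode chains of the H2-DM molecule, which edits the peptides bound by class II. H2-DMa is overlapped on the minus strand by Brd2, a chromatin gene at chr17:34112023-34122634. Cd74 (ENSMUSG00000024610) encodes the invariant chain, the chaperone of newly made class II molecules. Ciita (ENSMUSG00000022504, chr16:10480059-10528418, plus strand) is overlapped by Dexi on the minus strand. Whether the reads were counted by strand is not given in the sources used here.

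Class II promoters share an X box and a Y box at a fixed spacing, to which the RFX and NF-Y complexes bind before Ciita is recruited. In RefSeq promoter windows of 250 bases before to 50 bases after the start site (GRCm38.p6), the letters CTNGNAAC (X box) followed after 10 to 30 bases by TGATTGG (Y box) were searched on both strands. These letters were chosen after the class II windows had been read. Of the members, H2-Aa, H2-Eb1, H2-DMa and H2-DMb1 had a window, and 3 of these 4 held the pair. The stretches are shown 5′ to 3′ on the strand of the gene, with the X and Y letters in capitals, because they are the part of the promoter through which class II genes are known to be switched.
H2-Aa (chr17:34287842-34287932, minus strand): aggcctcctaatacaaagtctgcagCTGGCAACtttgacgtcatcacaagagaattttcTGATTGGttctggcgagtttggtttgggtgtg
H2-Eb1 (chr17:34305748-34305837, plus strand): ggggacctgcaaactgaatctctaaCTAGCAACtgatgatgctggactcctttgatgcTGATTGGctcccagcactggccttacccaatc
H2-DMb1 (chr17:34153069-34153159, plus strand): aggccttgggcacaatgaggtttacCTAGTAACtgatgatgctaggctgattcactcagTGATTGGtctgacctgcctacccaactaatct
The gap between the boxes was 26, 25 and 26 bases in these promoters. Of 32817 RefSeq windows of this length, 13.1% held the X letters, 7.80% the Y letters and 0.0762% the pair at this spacing, which was 25 windows. The other class II gene among them was H2-Ob. Neither of the H2-DMa windows held either set of letters. A match or its absence describes these letters and says nothing of binding.

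Filtering left 9802 (replicate 1) and 8713 (replicate 2) TO cells beside 9867 and 9516 testis cells, which were clustered without the class II genes. Clusters were named from marker genes that included no class II gene, so that the members could not decide what was called a macrophage. This gave 270 and 695 macrophage-like cells in TOs and 233 and 148 in testes, called macrophages below. All 9 macrophage markers were detected in every library, at a summed 118 and 130 unique molecular identifiers (UMIs) per 10000 UMIs in TOs and 141 and 146 in testes. The macrophages held 1983198 and 4470882 UMIs in TOs and 726115 and 624329 UMIs in testes, with medians of 6326.5, 5981, 3073 and 4283.5 UMIs per cell in that order of libraries. The testis macrophages also carried UMIs of 7 spermatid markers, at a summed 24.6 and 32.2 per 10000 UMIs against 0.0202 and 0.0336 in TOs. The part of these UMIs in the results below was not tested. Pairs of libraries shared 30 to 55 cell barcodes, and 0 of these were macrophages in both libraries of a pair.

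Macrophages carried less class II RNA in TOs than in testes, with a large difference within each condition. The 7 members together took 2.79 (95% counting interval 2.56–3.03) and 11.4 (11.1–11.7) of every 10000 macrophage UMIs in replicates 1 and 2 of TOs. In the testis libraries they took 17.7 (16.8–18.7) and 29.2 (27.9–30.6). Both TO libraries thus lay below both testis libraries, although testis replicate 1 fell to 6.47 and below TO replicate 2 under a stricter macrophage rule given later. TO replicate 2 lay nearer to testis replicate 1 than to TO replicate 1. As means ± SD over n = 2 libraries a condition, the TO level was 7.11 ± 6.11 and the testis level 23.5 ± 8.13. An exact permutation test, two-sided, gave p = 0.333, the smallest p that this design allows. Intervals on UMIs cover counting error only.

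The chains of I-A showed the largest fold differences of the members tested. H2-Aa was at 62.5 and 290 CPM, the UMIs of a gene scaled to equal library totals, in TO macrophages and at 500 and 870 CPM in testis macrophages, from 124, 1298, 363 and 543 UMIs. H2-Ab1, which encodes its partner, was at 13.1 and 64.4 CPM in TOs and at 211 and 492 CPM in testes, from 26, 288, 153 and 307 UMIs. The libraries of TOs and testes did not overlap for either gene. H2-Eb1 followed another order, with 19.2 and 117 CPM in TOs, 208 CPM in testis replicate 1 and 32.0 CPM in testis replicate 2. Its lower testis value therefore lay between both TO values.

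Cd74 lies on another chromosome than the class II chains, at chr18:60803848-60812652. This gene, the most abundant member in every library, was at 136 (120–153) and 585 (563–608) CPM in TO macrophages and at 719 (659–783) and 1357 (1267–1451) CPM in testis macrophages. Its TO and testis values did not overlap. H2-DMa was at 33.3 and 38.2 CPM in TOs and at 97.8 and 76.9 CPM in testes, and here the replicates of a condition were close together. H2-DMb1 was at 12.6 and 40.5 CPM in TOs and at 31.7 and 68.9 CPM in testes, so that TO replicate 2 lay above testis replicate 1. Ciita was rare everywhere, with 4 and 30 UMIs in TOs and 4 and 16 UMIs in testes. These gave 2.02 and 6.71 CPM in TOs and 5.51 and 25.6 CPM in testes, with overlapping values.

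**Figure D1:**
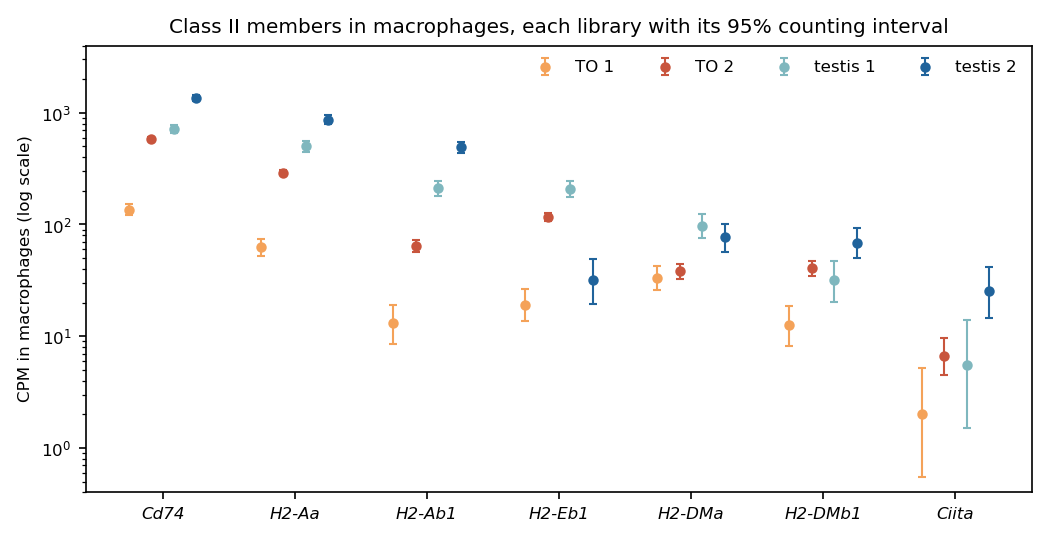
CPM of each member in the macrophages of each library on a log scale, where points are libraries and bars are 95% counting intervals. The TO points lie below both testis points for Cd74, H2-Aa, H2-Ab1 and H2-DMa, and they overlap them for H2-Eb1, H2-DMb1 and Ciita.

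The members were then tested in the macrophage sums by the edgeR quasi-likelihood test, and the calls were those past both a log2 fold change of 1 in size and a p of 0.01 after Benjamini-Hochberg adjustment. Among 10122 genes tested, 14.7% were called lower and 2.58% higher in TOs. Of the 6 members with enough UMIs, 1 was called, and it was lower in TOs. This was H2-Ab1 (log2 fold change −2.96, SE 0.59, adjusted p = 0.00268). The adjusted p was 0.0131 for H2-DMa (−1.14, SE 0.29), 0.0346 for H2-Aa (−1.79, SE 0.55) and 0.0937 for Cd74 (−1.37, SE 0.54), so these were not called. H2-DMb1 (−0.69, SE 0.51) and H2-Eb1 (−0.67, SE 0.76) were farther from the threshold, and Ciita fell below the low-count filter. The median log2 fold change was −1.25 over the 6 members and 0.02 over all genes tested. For 4 of the members both TO libraries lay below both testis libraries, as they did for 37.8% of all genes tested.

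The fold changes depended on the libraries, and the number of calls on the tool. The log2 fold change of H2-Ab1 ran from −4.50 to −2.24 with 1 library left out. That of H2-Eb1 was −2.43 without TO replicate 2, 0.16 without TO replicate 1 and 1.29 without testis replicate 1, so its direction was set by single libraries. With DESeq2 in place of edgeR no member was called, with 2 at an unadjusted p under 0.05, and H2-Ab1 was at −3.04 (adjusted p = 0.0316).

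A small group of cells held much of the class II RNA of testis replicate 1. Among the 233 macrophages of this library, 23 did not meet a stricter rule for single cells, which asked for a UMI of at least 3 of the 9 macrophage markers and fewer markers of every other type. These 23 cells held 871 of the library's 1287 class II UMIs, or 175 per 10000 UMIs, against 6.15 in the other 210 cells. They carried 35 UMIs of C1qa, 2 of Cd68 and 18 of Ccr2, a chemokine receptor of monocyte-derived cells. Of the dendritic cell markers, they held all 6 Cd209a and all 2 Flt3 UMIs of the library's macrophages but 0 of the 13 Zbtb46 UMIs, beside 194 UMIs of the spermatid markers. In testis replicate 2, 3 such cells held 288 of 1824 class II UMIs, and in TOs 3 and 0 such cells held 1 and 0.

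When macrophages were taken by this rule in all libraries, the class II sum became 2.79 and 11.3 per 10000 UMIs in TOs and 6.47 and 24.3 in testes. TO replicate 2 then lay between the testis libraries. No member was called by edgeR in these cells, with 2 at an unadjusted p under 0.05. The log2 fold change of H2-Ab1 was −2.30 (adjusted p = 0.0302) and that of H2-Eb1 was 0.91 (adjusted p = 0.342). Of 6 dendritic cell markers, Clec9a and Ccr7 were at 0 UMIs in the macrophages of all libraries, and the list took 0.0656 and 0.0626 of every 10000 macrophage UMIs in TOs and 0.289 and 0.144 in testes. Markers of B cells took 0.0101 and 0.0470 in TOs and 0.179 and 0.0801 in testes, and those of T or NK cells 0 and 0.00224 in TOs and 0.207 and 0.0801 in testes. All 3 lists were thus low but higher in both testis libraries than in both TO libraries. The part of such cells in the difference between conditions was not tested beyond the rule above.

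A few macrophages carried most of the class II RNA. No class II UMI was found in 61.1% and 46.8% of TO macrophages and in 56.7% and 47.3% of testis macrophages. The 10% of macrophages with the most class II UMIs held 83.5% and 74.1% of the sum in TOs and 86.7% and 60.03% in testes. Because TO cells were sequenced more deeply, each cell was thinned to 1500 UMIs, and the expected share over all draws was taken. The share of macrophages with a class II UMI was then 13.6% and 33.1% in TOs, against 32.1% and 38.1% in testes (23.4 ± 13.8% against 35.1 ± 4.19%, p = 0.667 by the same exact permutation test). The values overlapped between conditions. Without thinning the shares were 38.9% and 53.2% in TOs, against 43.3% and 52.7% in testes.

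The same thinned share among germ cells, which are not known for class II presentation, was 2.98% and 3.35% in TOs, against 12.1% and 10.5% in testes, at median depths of 7433, 8709, 2264.5 and 3072 UMIs. This share was higher in testes, and 1385 of 2972 and 2476 of 3123 class II UMIs of testis germ cells were of H2-DMa. That gene is described in germ cells below, so the share is given as a value and not as a background level. Cells with 3 or more class II UMIs after thinning were at most 0.0757% of germ cells in any library. They were 2.58% and 16.3% of macrophages in TOs and 15.05% and 29.4% in testes. Cells with 10 or more were 1.40% and 6.47% in TOs and 8.60% and 24.2% in testes, so both TO libraries lay below both testis libraries at this level. Of the 23 testis replicate 1 macrophages with at least 10 class II UMIs before thinning, 14 were among the 23 cells outside the stricter rule. By that rule the share with 3 or more UMIs was 9.81% in testis replicate 1 and 16.2% in TO replicate 2.

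**Figure D2:**
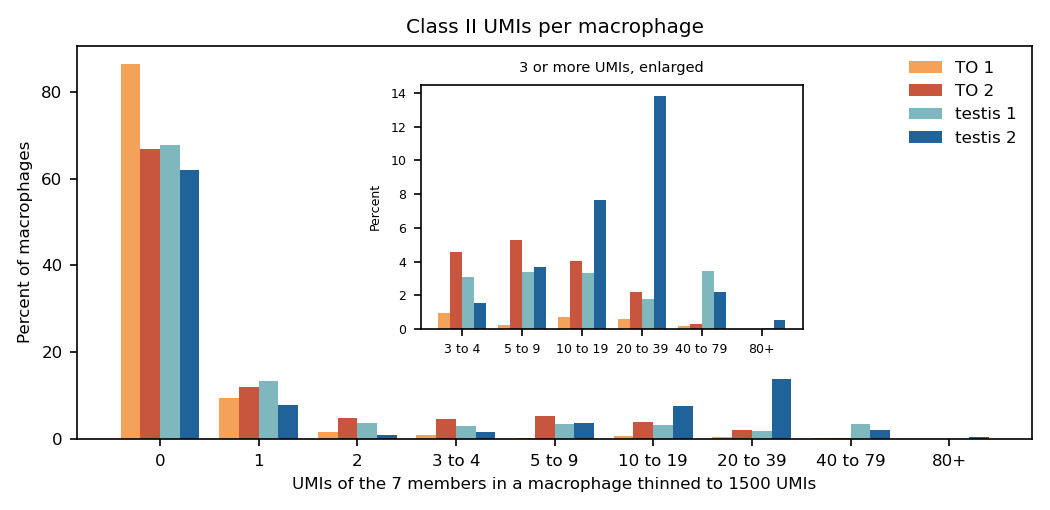
Percent of macrophages by their number of class II UMIs after thinning to 1500 UMIs per cell, with 3 or more UMIs enlarged in the inset. From 20 to 39 UMIs, testis replicate 2 has 13.8% of its macrophages and the other 3 libraries have 0.558% to 2.20%.

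Macrophages rich in H2-Aa mostly also carried Cd74, H2-Ab1 and H2-Eb1, except for H2-Eb1 in 1 library. Macrophages with at least 3 H2-Aa UMIs numbered 5 and 97 in TOs and 26 and 38 in testes, and every one of them had a Cd74 UMI. In TO replicate 1 these 5 cells held 118 of the 124 H2-Aa UMIs. H2-Ab1 was detected in 100% and 75.3% of such cells in TOs and in 84.6% and 97.4% in testes. H2-DMa was detected in 20% to 50% of such cells, H2-DMb1 in 26.9% to 57.9% and Ciita in 0% to 23.7%, over the 4 libraries. H2-Eb1 was detected in 100%, 85.6% and 88.5% of such cells in TO replicates 1 and 2 and testis replicate 1, and in 42.1% in testis replicate 2. For every 100 UMIs of H2-Aa there were 30.6, 40.4 and 41.6 UMIs of H2-Eb1 in those 3 libraries and 3.68 in testis replicate 2. In the other direction, thinned macrophages with a Cd74 UMI numbered 17 and 172 in TOs and 47 and 44 in testes. H2-Aa was detected in 41.2% and 48.8% of them in TOs and in 63.8% and 95.5% in testes. For H2-Ab1 the shares were 11.8% and 27.3% in TOs and 51.1% and 86.4% in testes. Detection in thinned cells is limited by depth.

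H2-Ab1 differed between conditions relative to Cd74. For every 100 Cd74 UMIs there were 9.63 and 11.0 H2-Ab1 UMIs in TO macrophages and 29.3 and 36.2 in testis macrophages. H2-Aa UMIs for every 100 of Cd74 numbered 45.9 and 49.6 in TOs, against 69.5 and 64.1 in testes. Neither ratio overlapped between conditions, and no test was made on them. Class II genes are highly polymorphic, and the reads of outbred mice were counted on a reference from an inbred strain. Whether alleles differed in how well their reads were counted was not tested.

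Next, the members were followed across 15 clusters of the macrophages, built without class II genes and described here without a test. Cluster 0, led by Cd209f, Cd209g, Vsig4 and Timd4, genes of resident macrophages, held 72.1% and 61.5% of testis macrophages and 0 and 4 TO cells. It was low in class II, with 1.53 and 0.812 class II UMIs per 10000 UMIs in testis replicates 1 and 2. Its cells thus took 6.53% and 1.92% of the class II UMIs of testis macrophages. H2-DMa was the most abundant member there, at 47.3 and 46.4 CPM.

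Cluster 2, led outside class II by Ccr2, Mgl2 and Lsp1, was present in both conditions, with 26 and 67 cells in TOs and 40 and 31 in testes. Its class II sum was 3.77 (2.74–5.06) and 16.6 (15.2–18.2) per 10000 UMIs in TOs and 65.2 (60.04–70.8) and 145 (137–154) in testes. It took 45.2% and 60.6% of the class II UMIs of testis macrophages but 7.96% and 9.86% in TOs. H2-Ab1 in this cluster was at 25.7 and 95.7 CPM in TOs and at 807 and 2137 CPM in testes. The TO and testis cells of cluster 2 also differed in other markers. Macrophage markers took 106 and 129 of every 10000 UMIs in its TO cells and 56.3 and 90.4 in its testis cells. Monocyte markers, Ccr2 among them, were higher there in both testis libraries than in both TO libraries. Whether its TO and testis cells were of the same kind was not tested. Cluster 10, led among other genes by Tnip3 and Creb5, held 3 and 4 testis cells at 446 and 349 class II UMIs per 10000. The 3 cells of testis replicate 1 all failed the stricter rule and carried macrophage markers at 7.13 per 10000 UMIs, against 70.8 in testis replicate 2 and 80.5 and 123 in TOs. Its 13 and 22 TO cells were at 0.725 and 35.7.

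In TOs most class II UMIs lay outside cluster 2, and in TO replicate 2 they were spread over many clusters. Cluster 5, led by Fabp5, Gpnmb and Spp1, genes of lipid-handling macrophages, had 25 and 82 TO cells and no testis cell. It was at 11.0 and 19.1 class II UMIs per 10000 UMIs and took 45.8% and 22.6% of the class II UMIs of TO macrophages. Cluster 9, led by Mmp12 and Gpnmb, with 15 and 34 TO cells and no testis cell, was at 7.91 and 12.0. All TO macrophages together were at 2.79 and 11.4. In TO replicate 2, clusters 12 and 6 were at 24.2 and 15.2, and cluster 1 took 16.8% of the class II UMIs. The TO replicates also differed in cluster 1, led by Egr3, Ccl12 and Ccl7, at 0.436 in replicate 1 and 9.98 in replicate 2. Cells with at least 10 class II UMIs numbered 5 in TO replicate 1 and 114 in TO replicate 2. They held 378 of 553 and 4446 of 5109 class II UMIs of these macrophages. In TO replicate 1, 2 of the 5 lay in cluster 5, 2 in cluster 9 and 1 in cluster 2. The cluster values of that replicate thus rest on few cells.

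**Figure D3:**
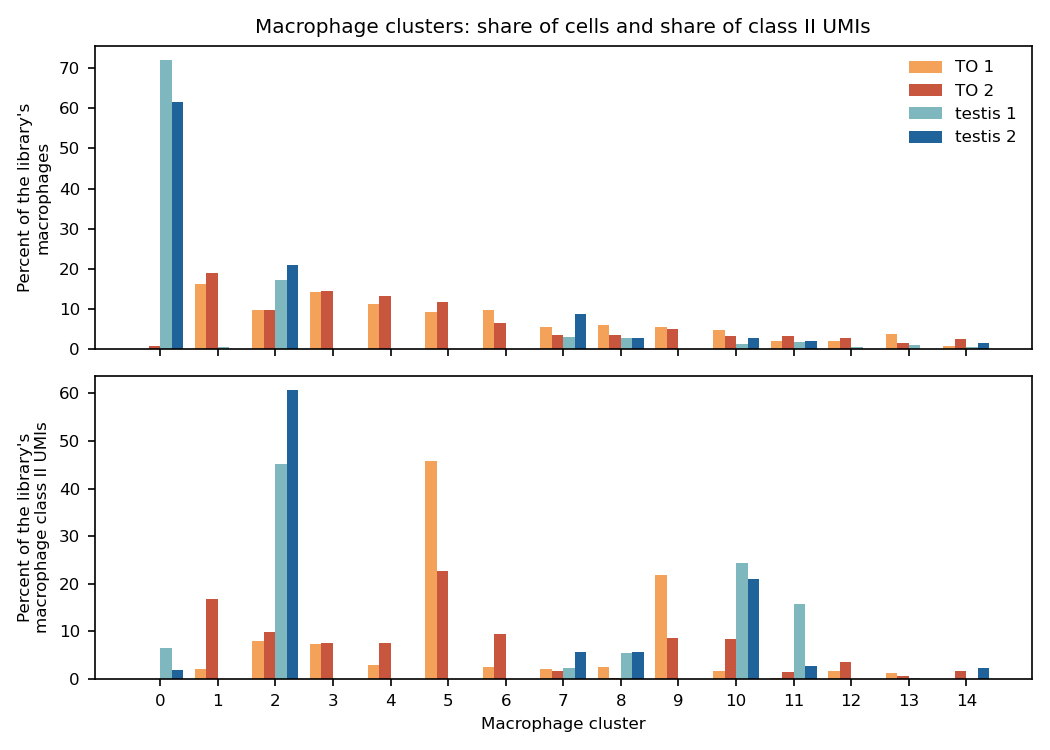
Percent of each library's macrophages (top) and of its macrophage class II UMIs (bottom) in clusters 0 to 14. Cluster 0 holds 72.1% and 61.5% of testis macrophages and 6.53% and 1.92% of their class II UMIs, while cluster 2 holds 45.2% and 60.6% of those UMIs.

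Other genes of the class II pathway were examined in the same macrophage sums. Of a list of 29 genes (28 in the files), 24 were tested, of which 4 were called higher and 1 lower in TOs (2.58% and 14.7% of all genes), and their median log2 fold change was 0.42. The 4 higher genes did not encode class II chains. Ctsl and Ctsz encode lysosomal proteases, Irf8 a myeloid transcription factor and Cd83 a surface protein that stabilizes class II molecules. Ctsl was at 1701 and 1155 CPM in TOs and at 314 and 245 CPM in testes (log2 fold change 2.50, SE 0.32, adjusted p = 0.000121). Ctsz (1.23), Irf8 (1.10) and Cd83 (1.61) were each higher in both TO libraries than in both testis libraries. When the limit for leaving out genes of other cells was lowered from 5 times to 2 times their CPM, 1 gene of the list was called. Without testis replicate 1 it was also 1, and without testis replicate 2 there were 2.

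H2-DMb2, a close relative of H2-DMb1 whose reads may be hard to tell apart from it, was at 5.04 and 7.60 CPM in TOs and at 27.5 and 19.2 CPM in testes (−1.70, adjusted p = 0.0208). H2-Ob (−1.11), the lysosomal proteases Ctsb (0.89) and Ctss (0.86) and the interferon-γ receptor subunit Ifngr2 (1.04, adjusted p = 0.0148) were not called. The RFX and NF-Y subunits that were tested, which bind the X and Y boxes shown above, were not called, with Rfxap at 0.73, Nfya at −0.11, Nfyb at 0.89 and Nfyc at 0.58.

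Genes of class I presentation were compared as a second list, of which 10 were tested. Of these, 1 was called, and it was lower in TOs, where 14.7% of all genes tested were called lower. Tap1, a subunit of the peptide transporter, was at 9.58 and 11.6 CPM in TOs and at 51.0 and 33.6 CPM in testes (log2 fold change −1.84, SE 0.38, adjusted p = 0.00384). Psmb9, a subunit of the immunoproteasome, was at −1.06 (adjusted p = 0.0232). The class I chains H2-K1 (−0.02) and H2-D1 (0.46) and their partner B2m (0.19) were not called, and the list's median was −0.01. Of the 9 macrophage markers, none was called by edgeR, with 1 at an unadjusted p under 0.05. Ccr2 was called lower in TOs, at 7.56 and 17.4 CPM against 68.9 and 94.5 CPM (−2.47, adjusted p = 0.000588). It was the only 1 of 4 monocyte markers that was tested. Of the others, Plac8 had 26 and 39 UMIs in TO macrophages and 9 and 3 in testis macrophages, and Ly6c2 and Chil3 had 0 in every library. These are raw UMIs, from macrophage totals of 1983198 and 4470882 in TOs and 726115 and 624329 in testes, so they do not compare levels.

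**Figure D4:**
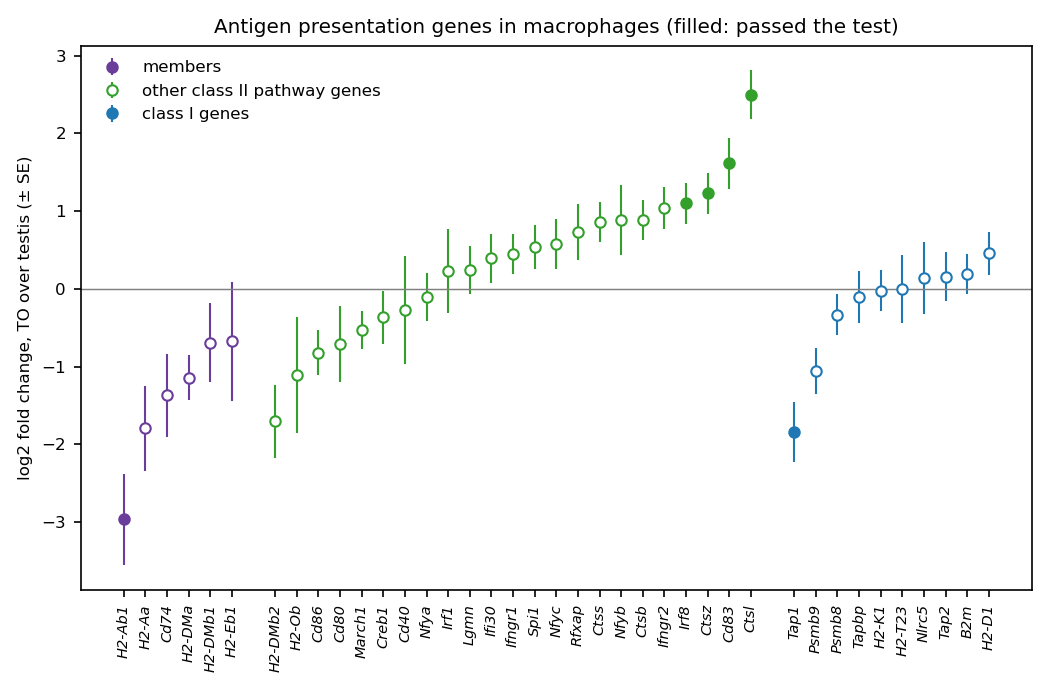
Log2 fold change of TOs over testes in macrophages (edgeR, bars are ± SE) for the 6 members tested, other class II pathway genes (the gene called lower is not drawn) and 10 class I genes, where filled points passed the test. Filled points are H2-Ab1 and Tap1 below 0 and Irf8, Ctsz, Cd83 and Ctsl above 0.

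To find genes of like pattern, every gene with a UMI in at least 5% of macrophages of every library was correlated with the class II sum across thinned macrophages of each library. Of 3375 genes, Cd52, a leukocyte surface glycoprotein, had the highest mean Spearman coefficient, 0.32. Within single libraries the coefficient was 0.13 and 0.11 for TOs but 0.45 and 0.60 for testes. The next were Rps14, Creb5, Rps7, Fau, Rps10, Rps9, Rps27, Cd9 and Rpl27, at means of 0.20 to 0.26, of which most are ribosomal genes. For these 10 genes, values in TOs were at most 0.13. Cells of a library share its depth and free RNA, so these values are a description without a test.

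Outside macrophages, Cd74 and H2-Aa were low in most types, while H2-DMa, H2-DMb1 and H2-Ab1 were found in several. Macrophages held 33.9% and 81.5% of all class II UMIs in TOs and 26.9% and 35.5% in testes. In Leydig cells and other somatic cells Cd74 was at 0 to 6.96 CPM and H2-Aa at 0 to 4.46 CPM. In germ cells as a whole Cd74 was at 0.134 and 0.641 CPM in TOs and 0.586 and 1.02 CPM in testes.

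H2-DMa and H2-DMb1 were also found in Sertoli cells and other somatic cells, and more so in testes. H2-DMb1 in Sertoli cells had 2 and 0 UMIs in TOs and 9 and 6 in testes, and was called lower in TOs (log2 fold change −5.13, SE 0.84, adjusted p = 0.00619). The pooled CPM in testes over that in TOs gave a ratio of 40.8 (95% counting interval 9.48–367). Of the testis UMIs, 6 and 4 lay in cluster 5 of all cells. From here on, cluster numbers are those of all cells, which are separate from the numbers of the macrophage clusters above. The testis replicate 2 cells of this Sertoli cluster also carried Tnp1 at 22541 CPM, and the part of spermatid RNA was not tested. Most testis cells, 278 and 107, lay in cluster 19, which held no TO cell and had H2-DMb1 at 1.51 and 1.95 CPM. The call was lost without TO replicate 1 (adjusted p = 0.0455), without TO replicate 2 (0.0665) and with clusters built without Harmony (−1.36). In other somatic cells it was at 0.216 and 0.668 CPM in TOs and at 4.30 and 8.38 CPM in testes and was also called (−3.67, SE 0.72, adjusted p = 0.00725), but not without testis replicate 1 (adjusted p = 0.0165) or testis replicate 2 (0.0446). The shares of all genes called lower were 16.8% in Sertoli cells and 19.0% in other somatic cells. H2-DMa in Sertoli cells was at 16.8 and 12.2 CPM in TOs and at 34.1 and 45.4 CPM in testes and was not called (−1.43, SE 0.28, adjusted p = 0.0108). In Leydig cells no member was called among 3 tested by edgeR, with 0 at an unadjusted p under 0.05, where 0.966% of all genes were called.

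Outside macrophages, H2-DMa was highest in spermatid-like cells of testes, and H2-DMb1 was also found in germ cells of testes. H2-DMb1 was at 13.4 and 12.9 CPM in the TO cells of a cluster named endothelial, which is described below. Spermatid RNA was also found in testis macrophages, as given above, and its part in the somatic values was not tested. H2-DMa in spermatid-like cells was at 48.7 and 76.3 CPM in testes, with a UMI in 17.7% and 25.1% of cells, and at 11.0 and 11.6 CPM in the 202 and 105 such cells of TOs. Many TO cells of this name did not match it. Tnp1 and Prm1 were at 0 CPM in clusters 2 and 4 of TO replicate 1 and in cluster 4 of TO replicate 2. Tnp1 was at 1396 to 23218 CPM in the testis cells of these clusters. It was also at 1246 CPM in the Sertoli cells of cluster 5 in testis replicate 1. The 25 and 21 TO cells of cluster 7 had Tnp1 at 0 and 12.8 CPM. Acrv1, another spermatid marker, was at 169 and 89.9 CPM in them and at 904 and 677 CPM in the testis cells of cluster 7. The values of the conditions are therefore not compared. In testis replicate 2 H2-DMa was highest in cluster 2 of all cells, at 106 CPM with a UMI in 43.9% of 2462 cells. Brd2, its overlapping neighbour, was at 20.2 CPM there. H2-DMb1 in spermatocyte-like cells had 0 and 1 UMIs in TOs and 73 and 108 UMIs in testes (log2 fold change −6.34, adjusted p = 0.000192, ratio of pooled CPM 79.3 with a counting interval of 14.1–3150), where 28.1% of all genes were called lower. Most TO cells of this class, 234 and 274, lay in cluster 12, where H2-DMb1 had 1 and 7 UMIs in testes. Most testis UMIs lay in clusters 15, 16, 22 and 23, with few or no TO cells. Cluster 15 had 40 and 31 TO cells, which held 0 UMIs of H2-DMb1, and its testis cells were at 18.4 and 32.1 CPM. Piwil1, a spermatocyte marker, was at 6.53 and 12.4 CPM in these TO cells and at 108 and 400 CPM in the testis cells.

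H2-Ab1 was present in germ cells that had almost no RNA of its partner H2-Aa. In spermatocyte-like cells it was at 21.5 and 19.4 CPM in TOs and at 34.7 and 6.33 CPM in testes, and H2-Aa was at 0.173 to 1.34 CPM. In spermatid-like cells of testes H2-Ab1 was at 37.2 CPM in replicate 1 and at 5.54 CPM in replicate 2. The testis replicates thus lay far apart, and H2-Ab1 was not called in spermatocyte-like cells (−0.30, adjusted p = 0.701). In Sertoli cells of testis replicate 1, Cd74 had 82 UMIs in 14.3% of cells, of which 77 lay in a single cluster of 278 cells. H2-Aa had a UMI in 0 of the 468 Sertoli cells of that library, so the limit on cells with a UMI at this depth was 0.641%, which is no limit on cells expressing the gene. In the other libraries Cd74 was at 1.08 to 3.29 CPM in Sertoli cells.

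**Figure D5:**
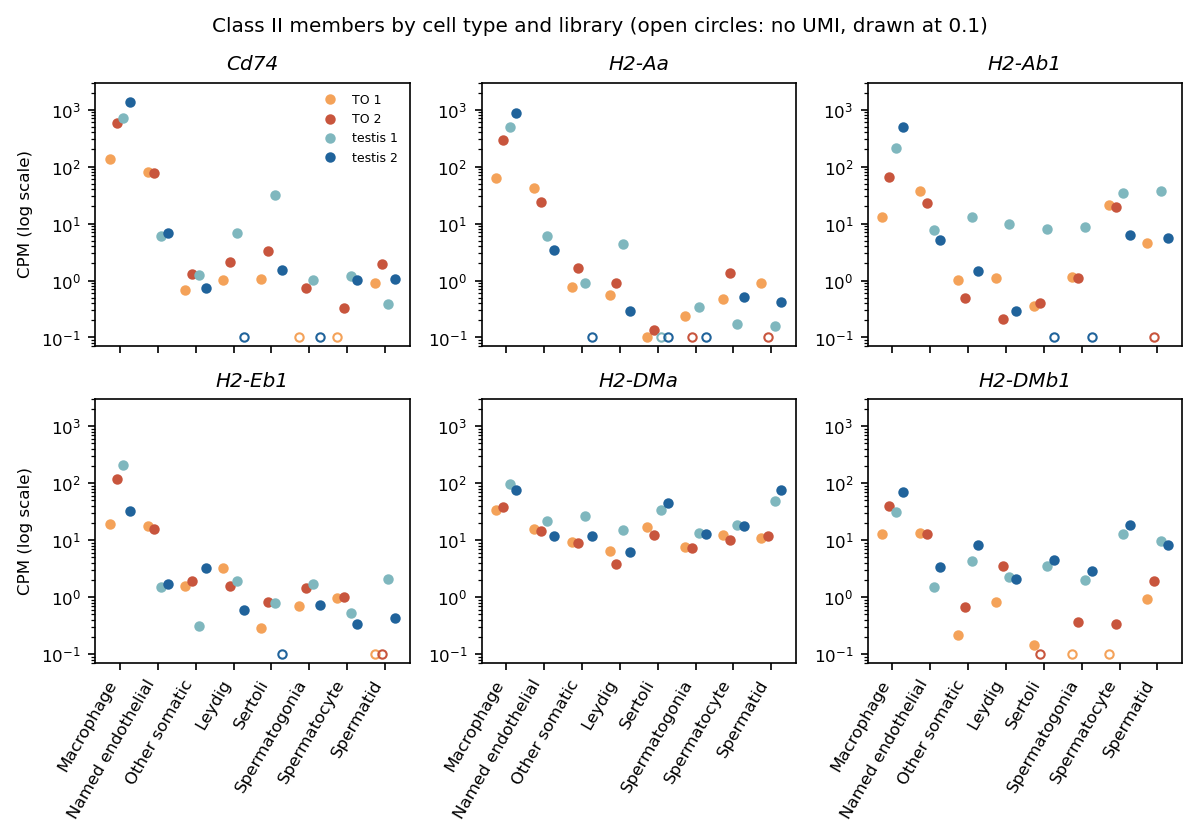
CPM of 6 members in each cell type and library on a log scale, where points are libraries and open circles mark 0 UMIs. Cd74 and H2-Aa are highest in macrophages in every library, whereas H2-DMa lies between 3.83 and 97.8 CPM in every type.

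A cluster named endothelial from its markers also held Cd74, and most of the markers were low in its TO cells. Pecam1, a defining endothelial gene, had a UMI in 0 of its 67 and 0 of its 79 TO cells, so at this depth the limit on cells with a UMI was 4.48% and 3.80%. It was at 308 and 274 CPM in the 132 and 87 testis cells. Cdh5 was at 6.71 and 0 CPM in the TO cells and at 480 and 501 CPM in the testis cells. Kdr, a further marker, was found in 52.2% and 44.3% of the TO cells, at 226 and 116 CPM, against 524 and 281 CPM in the testis cells. The TO cells were led by Rmst, Wfdc2 and Pax8 and carried the epithelial gene Epcam at 204 and 263 CPM, and they are called by these genes here. Their Cd74 was at 80.5 and 75.8 CPM, with a UMI in 28.4% and 31.6% of cells. H2-Aa in them was at 42.5 and 24.3 CPM and H2-Ab1 at 38.0 and 22.9 CPM. Ptprc, the general leukocyte marker, had 0 UMIs in these cells. In the testis endothelial-like cells Cd74 was at 6.09 and 6.77 CPM and H2-Aa at 6.09 and 3.38 CPM, and no comparison was made between conditions.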

How the data were processed

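Cells of 2 TO and 2 testis libraries had been profiled by droplet single-cell RNA sequencing. Per the labels, the authors ran Cell Ranger 7.1.0 on the mm10 build. What they deposited were raw UMI counts per gene and barcode. The annotation release is not given in the sources used here. Libraries held 11826 to 14643 barcodes and 74988295 to 119966959 UMIs.

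Here, doublets were removed with Scrublet at 0.8% per 1000 barcodes (1119 to 1715 barcodes a library), and cells were kept that had 1000 to 5000 genes, no more than 20000 UMIs and a mitochondrial share up to 10%. They were clustered on 2000 variable genes and 30 principal components with Harmony and Leiden (resolution 1), and immune cells again on 20 components. UMIs were summed per library and type and tested with edgeR 4.0.16 (quasi-likelihood, TMM, filterByExpr, Benjamini-Hochberg over all genes tested), a procedure tested on simulated data. Genes with at least 5 times the CPM in the other cells of either condition were left out (3450 in macrophages), among them Cd74 and H2-Aa in most other types. DESeq2 1.42.0 was an alternative. The cluster named endothelial was not compared, because Pecam1, Cdh5, Vwf and Tek were at or near 0 in its TO cells, although Kdr was not. Spermatid-like cells are given as values above, because Tnp1 and Prm1 were at or near 0 in their TO cells of clusters 4 and 7 of all cells. Acrv1 was not near 0 in cluster 7. The counts of tests in other cell types below include the spermatid-like cells.

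Members and gene lists were chosen with earlier results of these data known. Named genes were all members, the called genes of the class II pathway and class I lists with up to 6 others of each by largest absolute fold, and the 10 genes of most like pattern. The called gene of the pathway list that was lower in TOs is not reported here. H2-K1 and the other RFX and NF-Y subunits were added after their values were seen, as were the 23 testis cells with few macrophage markers and their genes.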

Additional observations from a re-analysis of the deposited data

Results flagged for a closer look

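A signal outside the comparisons was seen in TO cells that shared a cluster with testis endothelial-like cells. Cd74 was at 80.5 CPM in TO replicate 1 and 75.8 CPM in TO replicate 2, and H2-Aa was at 42.5 CPM in TO replicate 1. The TO and testis cells of that cluster differed in their endothelial markers, and their difference in class II was not tested.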

How the results depend on the processing

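Of the members in macrophages, 1 was called. The count was 0 with DESeq2 and with macrophages taken cell by cell. It was 3 for genes with any count, 2 with total UMIs without TMM and 2 with no doublets removed. The share of all genes called under each of these settings is not given here. H2-Eb1 reversed without TO replicate 1 (0.16), without testis replicate 1 (1.29) and cell by cell (0.91), and was at −2.43 without TO replicate 2. Of the class II pathway list, 5 were called, against 1 with genes left out from 2 times, 3 without TMM and 1 to 5 with 1 library left out. In 6 other cell types 3 of 15 tests were called, against 5 with DESeq2, 5 for genes with any count and 5 with no gene left out. With genes left out from 2 times, 1 of 5 tests was called. These types include the spermatid-like cells, whose conditions are not compared above and where 0 of 13691 genes were called. The shares of all genes called lower were 16.8% in Sertoli cells, 19.0% in other somatic cells and 28.1% in spermatocyte-like cells. The cause of these changes was not tested. The summed level differed by −22.1 to −10.6 per 10000 UMIs and the share by −21.5 to −1.96 percentage points with 1 library left out. Over all genes in macrophages, 1491 were called lower and 261 higher, against 245 and 116 with genes left out from 2 times.

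Replicate numbers were shared by the labels, with no batch named. Same-numbered libraries deviated with a correlation of 0.101 over 10122 genes. With a replicate block, 4 members were called in macrophages (Cd74 −1.64, H2-Aa −2.10, H2-Ab1 −3.20, H2-DMa −1.13). So were 7 genes of the pathway list and 4 tests in other types. The share of all genes called with the block is not given here.

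Ciita, with 4 to 30 macrophage UMIs a library, was limited by depth.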
